A study of Mus musculus with 10 samples.

Results

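Il31ra and the IL-6 cytokine family were followed through the Achilles tendon of mice with reduced Mkx, as 10 genes for ligands and receptors (Il31ra, Osmr, Il6st, Il6ra, Lifr, Lif, Osm, Il11ra1, Il6 and Il11) out of 32285 genes in the count table. The genes were found by their symbols, and Il31ra was chosen by its measured fold change in these same libraries, as one of the largest falls of the knockout against both controls. Its knockout values are therefore given as a description with no test. The other 9 genes were taken for their family. Of the 10 genes, 8 passed the filter on low counts, and Osm and Il6 did not.

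The Mkx gene product, Mohawk, is a homeodomain regulator of tendon development. In the knockout (Mkx-CreER/flox, 3 libraries), 1 allele supplied CreER, a recombinase that tamoxifen switches on, and the other was floxed Mkx, its target. The controls carried either allele alone (Mkx-CreER/+, 3 libraries, and Mkx flox/+, 4 libraries). All mice, controls included, received 20 mg/kg tamoxifen at 6 weeks of age, and the tendon was taken 4 weeks later. Cre is named for Mkx, so deletion would be confined to cells in which that allele was active under tamoxifen, and other cells would keep the floxed allele. Which cells recombined was not measured here. Whether the CreER allele itself disrupts Mkx, and how many floxed copies the floxed control holds, is not settled by the labels, since the series text writes that control as Mkx-flox. Whether animals were pooled was not stated in the sources used here, and p-values measure the spread between these libraries.

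Cytokines of the IL-6 family act through receptor complexes built on shared chains. Il6st encodes gp130, the signalling chain that IL-6, IL-11, LIF and oncostatin M all use, and each ligand adds a chain of its own: Il6ra for IL-6, Il11ra1 for IL-11, Lifr for LIF and Osmr for oncostatin M. The receptor for IL-31, an itch-associated cytokine of T cells, pairs the product of Il31ra with that of Osmr and does without gp130. Ligand binding activates JAK kinases and STAT transcription factors, STAT3 above all, and SOCS proteins damp the signal. In tendon and other connective tissue the family is known for its part in inflammation and repair.

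Promoter windows from RefSeq (build GRCm38.p6, 250 bases before to 50 bases after the annotated start) are shown for Il31ra, for Il6ra, which fell as well, and for Osmr, the partner chain of Il31ra, which was not called. They run 5′ to 3′ in the direction of the gene. Capitals mark matches to the STAT palindrome TTCNNNGAA, to ACATGT, the core of sites described for Iroquois-class homeodomain proteins related to Mkx, and to the AP-1 motif TGANTCA, each searched on both strands.
Il31ra, chr13:112580613-112580912, minus strand: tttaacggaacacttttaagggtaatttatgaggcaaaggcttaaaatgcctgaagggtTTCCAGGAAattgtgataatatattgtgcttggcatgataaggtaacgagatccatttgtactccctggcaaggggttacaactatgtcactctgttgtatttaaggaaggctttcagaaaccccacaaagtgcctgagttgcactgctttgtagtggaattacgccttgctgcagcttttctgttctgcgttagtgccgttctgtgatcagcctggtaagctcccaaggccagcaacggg
Il6ra, chr3:89913147-89913446, minus strand: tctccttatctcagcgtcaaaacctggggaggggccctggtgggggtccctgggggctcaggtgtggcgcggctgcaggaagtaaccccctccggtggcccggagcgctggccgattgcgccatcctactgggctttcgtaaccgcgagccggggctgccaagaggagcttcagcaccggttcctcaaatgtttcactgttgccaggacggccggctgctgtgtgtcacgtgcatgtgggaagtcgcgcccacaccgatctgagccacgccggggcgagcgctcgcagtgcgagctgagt
Osmr, chr15:6874264-6874563, minus strand: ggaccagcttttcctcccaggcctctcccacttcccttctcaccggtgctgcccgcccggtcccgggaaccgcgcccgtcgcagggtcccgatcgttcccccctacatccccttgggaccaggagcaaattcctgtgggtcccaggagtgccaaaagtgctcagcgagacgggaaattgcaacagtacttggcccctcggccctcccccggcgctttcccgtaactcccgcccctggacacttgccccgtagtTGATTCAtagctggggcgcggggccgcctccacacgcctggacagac
The Il31ra window held 1 STAT match, TTCCAGGAA, at bases 60 to 68 of the window, and no match to the other motifs. The Osmr window held 1 AP-1 match, TGATTCA, at bases 254 to 260. The Il6ra window held none of the motifs. No match to one motif overlapped a match to another. Of all 32851 RefSeq windows of this length, 8.3% held the STAT palindrome, 5.28% held ACATGT and 7.81% held the AP-1 motif, so such matches are common. The GC content was 44.7% in the Il31ra window and 66% in both the Il6ra and the Osmr window. RefSeq gave windows for 9 of the 10 genes, 12 windows in all. Among them the AP-1 motif also occurred once each at Il6, Il11 and Lif, the STAT palindrome occurred at Il31ra, and ACATGT was found in none of the 12. The Il31ra window lies inside the longer span that GENCODE vM21 gives the gene, and its first transcribed bases were not found in a GENCODE transcript, unlike those of the other 11 windows.

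Libraries held 8680934 to 22656417 counts, and 3 counts, taken as the detection limit, correspond to 0.126 to 0.360 CPM (counts scaled to a common library size, here by TMM). Libraries are numbered as the columns of the count table are. Mkx checked the labels: it measured 26.1, 32.4 and 30.5 CPM in Mkx-CreER/flox libraries 1, 4 and 5, against 91.4, 93.8 and 93.5 CPM in Mkx-CreER/+ libraries 1, 2 and 4 and 187, 177, 121 and 153 CPM in Mkx flox/+ libraries 1 to 4. Markers of tendon fibroblasts were present in every library, with a summed level of 30437 to 43187 CPM in Mkx-CreER/flox, 51425 to 68138 CPM in Mkx-CreER/+ and 84283 to 141992 CPM in Mkx flox/+. Mkx-CreER/flox library 1 stood apart from the rest, scoring 84.6 on principal component 1, where the others lay between -40.9 and 36.9, and with a mitochondrial share of 8.85% of its counts against 1.92% to 5.32%.

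Il31ra (ENSMUSG00000050377, chromosome 13, 112519898 to 112594360, minus strand) was scarce in knockout tendon. It measured 0.181, 0.491 and 0.739 CPM in Mkx-CreER/flox libraries 1, 4 and 5, against 1.85, 3.57 and 1.56 CPM in Mkx-CreER/+ libraries 1, 2 and 4 and 2.92, 6.25, 5.29 and 4.56 CPM in Mkx flox/+ libraries 1 to 4. Every knockout library lay below all 7 controls, while the Mkx-CreER/+ and Mkx flox/+ ranges overlapped through Mkx-CreER/+ library 2. The counts behind these values were small, with 22 reads over the 3 Mkx-CreER/flox libraries, 130 over the 3 Mkx-CreER/+ libraries and 216 over the 4 Mkx flox/+ libraries. Mkx-CreER/flox library 1 held 2 reads, under the detection limit of 3. The means were 0.470 ± 0.280 CPM in Mkx-CreER/flox (SD, n = 3), 2.33 ± 1.09 CPM in the 3 Mkx-CreER/+ libraries and 4.75 ± 1.40 CPM in the 4 Mkx flox/+ libraries.

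The fitted log2 difference of Il31ra was -2.77 (SE 0.505) for the knockout over the averaged controls, -2.26 (SE 0.544) against Mkx-CreER/+ alone and -3.28 (SE 0.535) against Mkx flox/+ alone. These comparisons share the knockout libraries. By size of fall it ranked 11 among all 16017 genes tested and first of the 187 called genes that lay below all controls in every knockout library and averaged a log2 CPM of 1 or more, and Cnmd (chondromodulin) came next at -2.53 (SE 0.627). Both ranks rest on the values it was chosen by. Without Mkx-CreER/flox library 1 the difference from both controls was -2.46 (SE 0.522). The difference between the 2 controls was not itself a ground for choosing Il31ra. The same control values entered that choice, however, so this comparison is not independent of it and is read as a description. There Il31ra was lower in Mkx-CreER/+ than in Mkx flox/+ by a log2 difference of -1.03 (SE 0.456), with an unadjusted p = 0.0401 and an edgeR adjusted p = 0.975 over all genes, so this difference did not pass. Mkx itself differed in the same direction between the controls (-0.78, SE 0.176, edgeR adjusted p = 0.489).

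**Figure D1:**
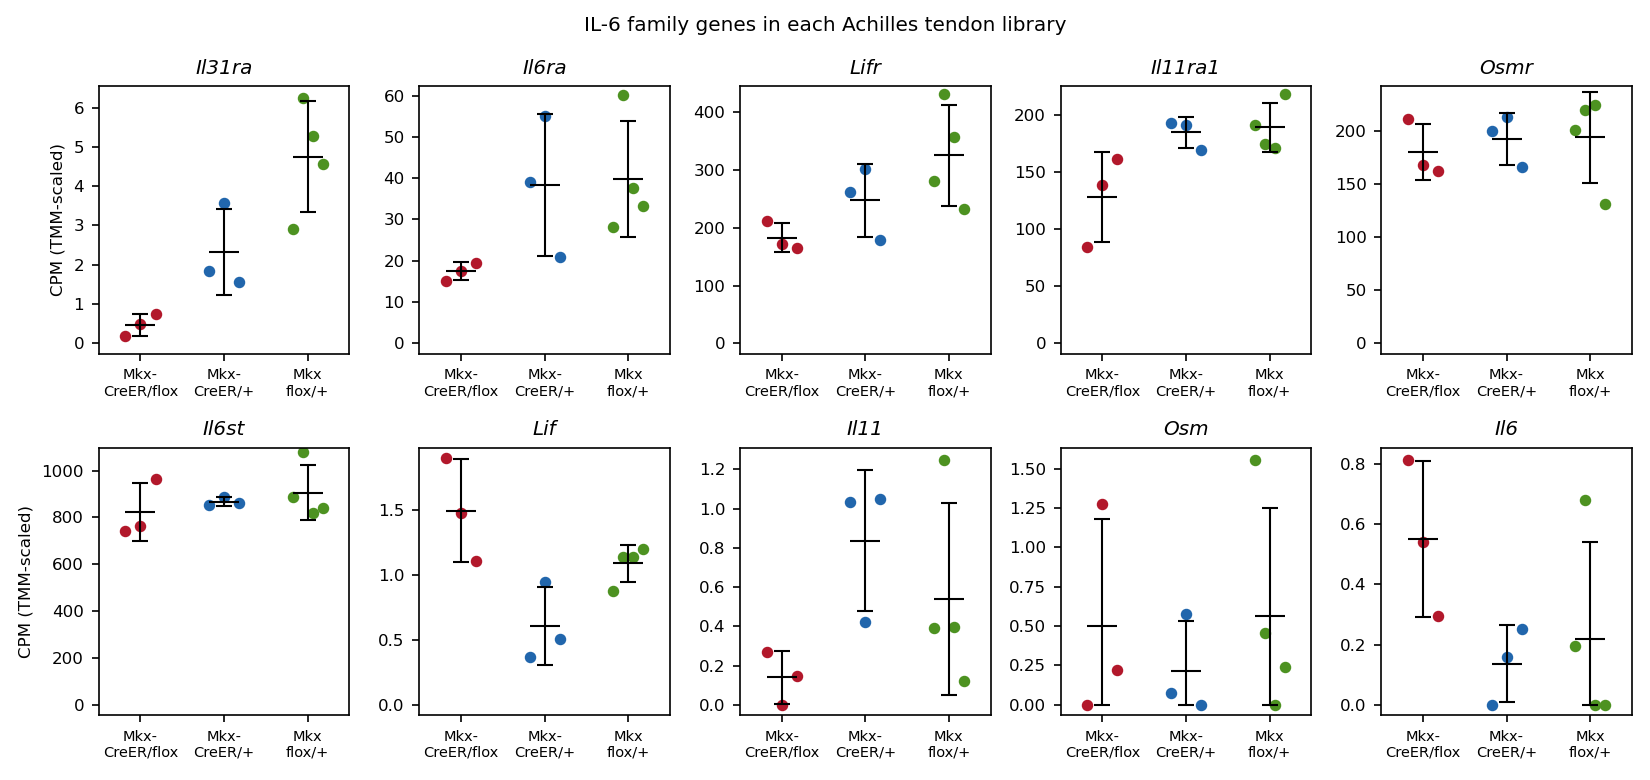
CPM of the 10 IL-6 family genes in each library (points), by genotype, with the mean and SD as black bars cut at 0. For Il31ra the knockout points lie between 0.181 and 0.739 CPM, below the lowest control at 1.56 CPM, whereas the points of Osmr and Il6st overlap between genotypes.

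Il31, the ligand of this receptor, had 0 counts in each of the 10 libraries, which allows up to 0.126 to 0.360 CPM per library. Osmr (ENSMUSG00000022146, chromosome 15, 6813577 to 6874969, minus strand), the partner chain, was far more abundant and overlapped between genotypes. It measured 211, 168 and 163 CPM in Mkx-CreER/flox libraries 1, 4 and 5, against 200.3, 213 and 166 CPM in Mkx-CreER/+ libraries 1, 2 and 4 and 201, 220.4, 225 and 132 CPM in Mkx flox/+ libraries 1 to 4. The log2 difference from both controls was -0.10 (SE 0.184, edgeR adjusted p = 0.817), with a 95% interval of -0.49 to 0.29. The same held for Il6st (ENSMUSG00000021756, chromosome 13, 112464070 to 112510086, plus strand), the gp130 gene, at 741, 762 and 966 CPM in Mkx-CreER/flox against 853, 888 and 861 CPM in Mkx-CreER/+ and 887, 1079.7, 819.9 and 839 CPM in Mkx flox/+. Its log2 difference from both controls was -0.11 (SE 0.177, edgeR adjusted p = 0.792), with a 95% interval of -0.49 to 0.27. For both shared chains the interval reaches neither a doubling nor a halving of the level.

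Il6ra (ENSMUSG00000027947, chromosome 3, 89864059 to 89913196, minus strand), the chain that binds IL-6, fell in the knockout. It measured 15.1, 17.6 and 19.4 CPM in Mkx-CreER/flox libraries 1, 4 and 5, against 39.0, 55.1 and 20.9 CPM in Mkx-CreER/+ libraries 1, 2 and 4 and 28.1, 60.1, 37.5 and 33.3 CPM in Mkx flox/+ libraries 1 to 4. All knockout libraries lay below all controls, although Mkx-CreER/+ library 4 was close to them. The log2 difference was -1.16 (SE 0.295, edgeR adjusted p = 0.0389) against both controls, -1.19 (SE 0.317, adjusted p = 0.0368) against Mkx flox/+ and -1.14 (SE 0.332, adjusted p = 0.329) against Mkx-CreER/+, where it did not pass. Between Mkx-CreER/+ and Mkx flox/+ it was -0.05 (SE 0.305, edgeR adjusted p = 0.99998).

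Il6ra was the only 1 of the 7 tested members other than Il31ra to be called against both controls, where 4.65% of all 16017 genes were called, 1.62% as lower and 3.03% as higher. At an unadjusted p under 0.05 stood 4 of these 7 (Il6ra, Lifr, Il11ra1 and Il11), beside 20.7% of all genes. The call rested on small margins. It ended when Mkx-CreER/+ library 1 or 2 (edgeR adjusted p = 0.0782 and 0.0841), Mkx-CreER/flox library 1, 4 or 5 (0.154, 0.116 and 0.0520) or Mkx flox/+ library 1, 2 or 3 (0.0512, 0.0576 and 0.0608) was left out, with log2 differences between -0.99 and -1.26. It held without Mkx-CreER/+ library 4 (-1.33, adjusted p = 0.0100) and without Mkx flox/+ library 4 (-1.21, adjusted p = 0.0399). Calls over all genes changed in these fits too, from 744 in the full fit. They numbered 76 and 67 without Mkx-CreER/+ library 1 or 2, and 213, 64 and 1054 without Mkx-CreER/flox library 1, 4 or 5. Without Mkx flox/+ library 1, 2 or 3 they numbered 246, 352 and 379. In the 2 fits where the Il6ra call held, they numbered 1114 and 765. Gm42809, which runs antisense, shares 2.8% of the exon bases of Il6ra, and whether counting used strand was not stated in the sources used here.

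Lifr (ENSMUSG00000054263, chromosome 15, 7090614 to 7197489, plus strand), the LIF receptor chain, measured 212, 171 and 165 CPM in Mkx-CreER/flox libraries 1, 4 and 5, against 263, 301 and 178 CPM in Mkx-CreER/+ libraries 1, 2 and 4 and 281, 432, 357 and 233 CPM in Mkx flox/+ libraries 1 to 4. The knockout libraries lay below every Mkx flox/+ library and overlapped with Mkx-CreER/+ library 4. Lifr fell against Mkx flox/+ (log2 difference -0.84, SE 0.239, edgeR adjusted p = 0.0480), where Il6ra and Lifr were the 2 of 7 tested members called and 7.27% of all genes were called, 2.90% as lower and 4.37% as higher. Against both controls it stood at -0.64 (SE 0.219, adjusted p = 0.110) and against Mkx-CreER/+ at -0.44 (SE 0.251, unadjusted p = 0.101), neither of which passed. The difference between the controls was -0.40 (SE 0.236, edgeR adjusted p = 0.99998), so the 2 knockout comparisons are not shown to differ. The call of Lifr against Mkx flox/+ ended without Mkx-CreER/+ library 1 or 2 (adjusted p = 0.0638 and 0.0530), Mkx-CreER/flox library 4 or 5 (0.149 and 0.0880) or Mkx flox/+ library 1, 2 or 3 (0.0716, 0.125 and 0.113). Without Mkx-CreER/+ library 4, Lifr was also called against both controls (-0.75, adjusted p = 0.0459), where 1114 genes in all were called. The call of Il6ra in the Mkx flox/+ comparison ended without Mkx-CreER/flox library 1 or 4 (0.129 and 0.102) or Mkx flox/+ library 2 or 3 (0.0957 and 0.0693). Over all genes, calls against Mkx flox/+ went from 1165 to 954, 1016 and 1204 without Mkx-CreER/+ library 1, 2 or 4. They numbered 632, 518 and 1585 without Mkx-CreER/flox library 1, 4 or 5. Without Mkx flox/+ library 1, 2, 3 or 4 they numbered 455, 640, 546 and 1006.

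Il11ra1 (ENSMUSG00000073889, chromosome 4, 41699989 to 41769474, plus strand), the IL-11 receptor chain, measured 84.6, 138 and 162 CPM in Mkx-CreER/flox libraries 1, 4 and 5, against 193, 192 and 169 CPM in Mkx-CreER/+ libraries 1, 2 and 4 and 191, 175, 171 and 219 CPM in Mkx flox/+ libraries 1 to 4. The knockout libraries again lay below all 7 controls, library 1 by the widest margin, but the difference did not pass (log2 difference -0.54, SE 0.190, edgeR adjusted p = 0.115). Without Mkx-CreER/flox library 5 it was -0.76 (adjusted p = 0.0439), where 1054 genes in all were called, and without library 1 it was -0.34. Il11ra2, a close copy of the gene with the same coding length of 1296 bases, measured 0 to 0.6252 CPM, and how reads that fit both copies were treated was not stated in the sources used here. Of the 8 tested members, Il31ra, Il6ra and Il11ra1 had every knockout library below every control, which 3.12% of all tested genes did. Il31ra was chosen partly for that property, so the count is read as a description. No member had every knockout library above every control, as 3.81% of all genes did. Against Mkx-CreER/+ alone, Il31ra, Il6ra, Il11ra1 and Il11 lay wholly below (6.14% of all genes) and Lif wholly above (6.65%). Against Mkx flox/+ alone, Il31ra, Il6ra, Lifr and Il11ra1 lay wholly below (9.50%) and none wholly above. Between Mkx-CreER/+ and Mkx flox/+ every member overlapped, while 3.89% of all genes were wholly below and 2.88% wholly above.

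**Figure D2:**
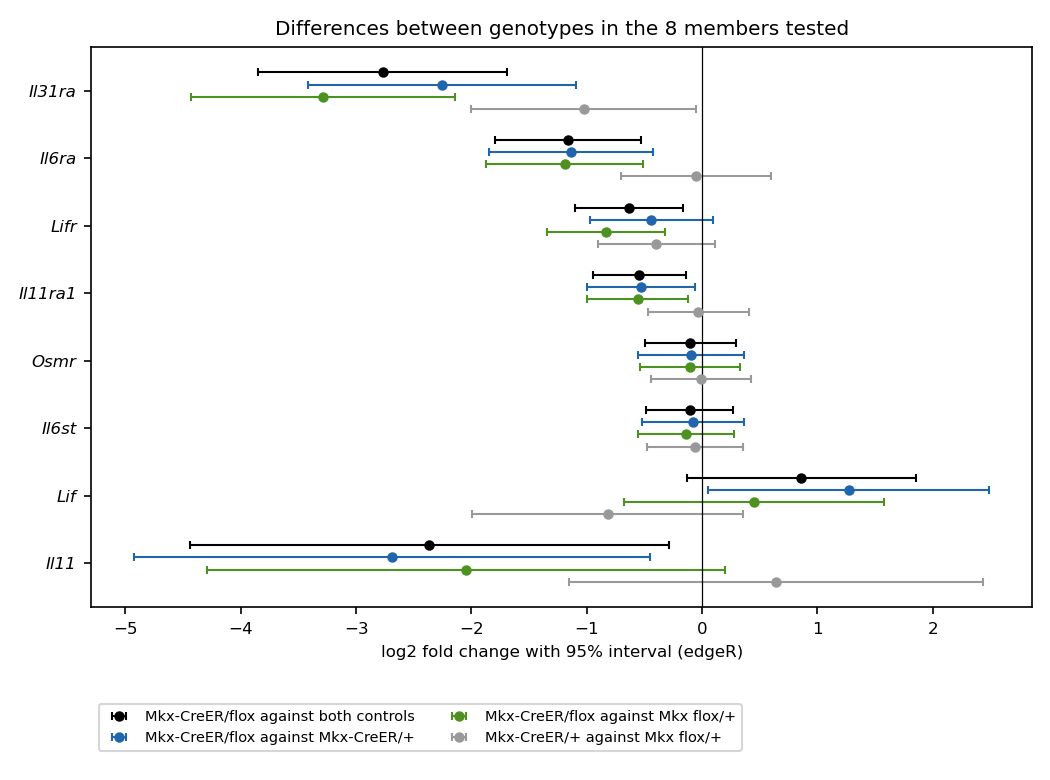
Log2 fold changes with 95% intervals from edgeR for the 8 members tested, in the 3 knockout comparisons, which share the knockout libraries, and between the controls. Il6ra lies near -1.16 in each knockout comparison and the intervals of Osmr and Il6st span 0 in all 4.

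The ligand genes were close to the detection limit. Lif, the ligand of Lifr, measured 1.90, 1.47 and 1.11 CPM in Mkx-CreER/flox, against 0.370, 0.946 and 0.505 CPM in Mkx-CreER/+ and 0.876, 1.14, 1.14 and 1.20 CPM in Mkx flox/+. The knockout range overlapped with that of Mkx flox/+ but not with that of Mkx-CreER/+, and the log2 difference from both controls was 0.86 (SE 0.465, edgeR adjusted p = 0.317). Il11, the IL-11 gene, measured 0.271, 0 and 0.148 CPM in Mkx-CreER/flox, against 1.04, 0.420 and 1.05 CPM in Mkx-CreER/+ and 0.389, 1.25, 0.398 and 0.120 CPM in Mkx flox/+. These are 5, 47 and 23 reads per genotype, and the log2 difference of -2.37 (SE 0.973, edgeR adjusted p = 0.184) did not pass. It was -3.26 without Mkx-CreER/flox library 1 and -1.65 without library 4. Il6 had 24 reads over the 3 Mkx-CreER/flox libraries, at 0.814, 0.540 and 0.296 CPM. In the controls it had 9 reads over the Mkx-CreER/+ libraries and 8 over the Mkx flox/+ libraries, with 3 of the 7 controls at 0 and the rest between 0.158 and 0.681 CPM. Osm, the oncostatin M gene, ranged from 0 to 1.28 CPM in Mkx-CreER/flox, from 0 to 0.578 CPM in Mkx-CreER/+ and from 0 to 1.56 CPM in Mkx flox/+. Osm and Il6 were not tested.

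Against Mkx-CreER/+ alone, edgeR called 0 of the 7 tested members other than Il31ra, with 4 at an unadjusted p under 0.05 (Il6ra, Lif, Il11ra1 and Il11), where 0.00624% of all genes were called and 10.7% had such a p. DESeq2 called 0 of them too, with 112 genes called in all. Without Mkx-CreER/+ library 4, Il6ra was called in this comparison (-1.46, SE 0.293, edgeR adjusted p = 0.0452), where edgeR called 117 genes in all. Between Mkx-CreER/+ and Mkx flox/+, edgeR called 0 of all 8 tested members and 0% of all genes. Il31ra was the 1 member at an unadjusted p under 0.05, beside 4.98% of all genes. DESeq2 called 0 members, with 35 genes called in all.

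Per length of exon, the receptor chains of the family spanned a wide range of levels. In CPM per kilobase of exon, with the median and range over the 10 libraries, Il6st led at 77.2 (66.7 to 97.3), followed by Il11ra1 at 38.7 (18.9 to 48.9), Lifr at 22.997 (15.3 to 40.1) and Osmr at 16.6 (10.9 to 18.6). From Il11ra1 to Osmr, each range overlapped with that of the next gene. Il6ra lay below them at 3.56 (1.75 to 6.95) and Il31ra at 0.420 (0.0319 to 1.10), each with a range apart from its upper neighbour. Below Il31ra came Lif at 0.258, Il11 at 0.189, Osm at 0.102 and Il6 at 0.0920, with ranges that overlapped throughout. Il31ra held rank 6 of 10 by its mean in Mkx-CreER/+ and in Mkx flox/+ and rank 9 in Mkx-CreER/flox, where its mean was 0.0829 ± 0.0493 (SD, n = 3) against 0.410 ± 0.192 in the 3 Mkx-CreER/+ libraries and 0.838 ± 0.248 in the 4 Mkx flox/+ libraries.

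**Figure D3:**
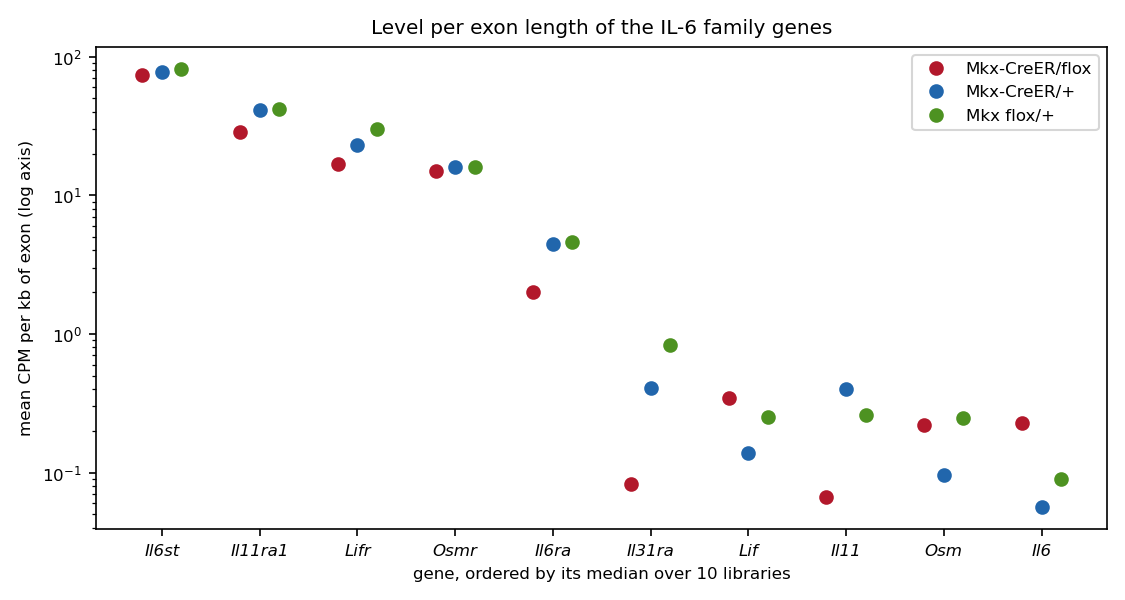
Mean CPM per kilobase of exon for the 10 genes in each genotype, on a log axis, ordered by the median over 10 libraries. Receptor chains from Il6st (77.2) to Il6ra (3.56) stand above Il31ra and the ligand genes, which lie under 1.

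Macrophage and tendon fibroblast markers were lower in the knockout, as Il31ra and Il6ra were. Schwann cell, endothelial, mural and skeletal muscle markers had positive median log2 differences from both controls (2.57, 0.41, 0.78 and 0.32). Of 15 macrophage markers, 12 fell against both controls, beside 1.62% of all genes tested, and none was at 0 throughout. Their summed level was 802 to 919 CPM in Mkx-CreER/flox, 1158 to 2863 CPM in Mkx-CreER/+ and 1704 to 2866 CPM in Mkx flox/+. Their mean log2 CPM was 4.70 to 4.98 in Mkx-CreER/flox, 5.22 to 6.47 in Mkx-CreER/+ and 5.80 to 6.62 in Mkx flox/+, so that the knockout lay apart from the controls here too. The lowest control by this score, Mkx-CreER/+ library 4, was also the lowest control for Il6ra and for Il31ra. The next lowest, Mkx flox/+ library 2 at 5.80, had the highest level of all libraries for both, at 60.1 and 6.25 CPM. With the macrophage score as a covariate, a setting chosen after the data were seen, the log2 difference from both controls was -0.40 for Il6ra (SE 0.480, edgeR adjusted p = 0.9999) and -1.96 for Il31ra (SE 0.719), and 1 gene of 16017 was called in all, against 744 without it. The score does not overlap between the knockout and the controls, so this fit cannot separate it from genotype. Of 10 tendon fibroblast markers, Mkx among them, 5 fell, beside the same 1.62% of all genes. Their mean log2 CPM was 9.53 to 9.86 in Mkx-CreER/flox, 10.4 to 10.6 in Mkx-CreER/+ and 10.998 to 11.43 in Mkx flox/+. In bulk tissue, fewer cells of a type and less RNA per cell cannot be told apart.

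Skeletal muscle markers overlapped between genotypes, with a mean log2 CPM of 9.22 to 10.3 in Mkx-CreER/flox, 8.69 to 10.3 in Mkx-CreER/+ and 7.66 to 9.72 in Mkx flox/+. Of these 12 markers 3 rose against both controls, beside 3.03% of all genes. With that score as a covariate Il31ra stood at -2.91 (SE 0.525) and Il6ra at -1.24 (SE 0.318, edgeR adjusted p = 0.0734). In that fit 126 genes in all were called, against 744 without the covariate. Of the other lists, 1 of 10 paratenon and sheath fibroblast markers fell, beside 1.62% of all genes. Of these 10, 8 had a log2 difference below 0 and 5 an unadjusted p under 0.05, beside 48.5% and 20.7%. Their median log2 difference was -0.60. A rise was called for 1 of 8 Schwann cell, 2 of 9 endothelial and 2 of 8 mural markers, beside 3.03%. Of 6 tested lymphocyte, neutrophil and mast cell markers 0 were called and 0 had an unadjusted p under 0.05, beside 4.65% and 20.7%. None of the 10 on that list was at 0 throughout. Of the keratinocyte markers 1 of 2 tested fell, beside 1.62% of all genes, and Krt5 and Krt14 were at 0 in every library. The 2 tested had a median log2 difference of -1.06.

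**Figure D4:**
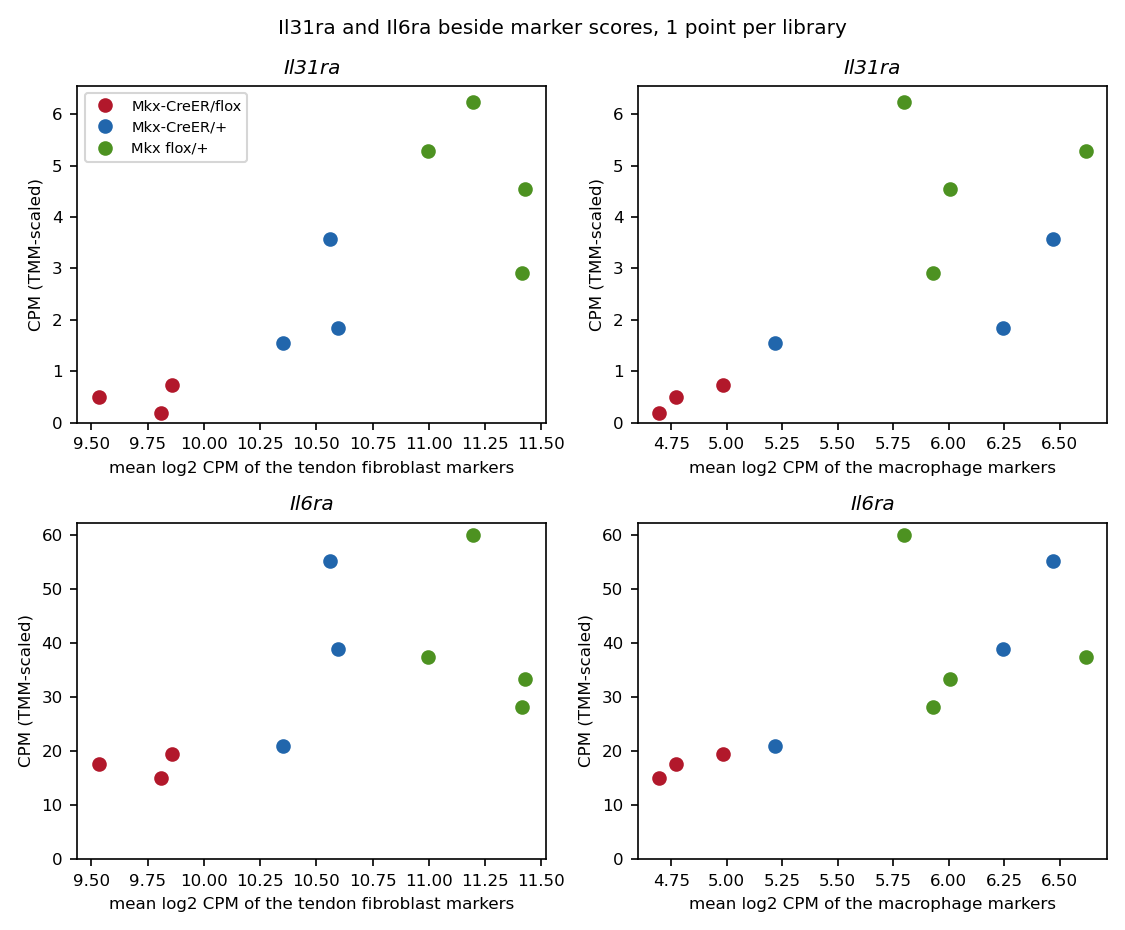
CPM of Il31ra (top) and Il6ra (bottom) against the mean log2 CPM of tendon fibroblast markers (left) and macrophage markers (right), 1 point per library. The knockout points occupy the lower left of each panel, at macrophage scores of 4.70 to 4.98, where no control lies.

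The 5 genes whose log2 CPM followed Il31ra most closely over the 10 libraries, among the 13386 expressed genes ranked (average log2 CPM 1 or more), were Tifab (Pearson r = 0.977), Vit (0.974), Cgnl1 (0.966), Abhd4 (0.966) and Itgb5 (0.965). Vit encodes the matrix protein vitrin, Cgnl1 a junction protein related to cingulin, and Itgb5 an integrin chain. After each genotype was centred on its mean, the correlations were 0.828, 0.839, 0.888, 0.893 and 0.819. Libraries share their depth and composition across genes, so these values are a description. Within the family, the correlation with Il31ra was 0.871 for Il6ra, 0.813 for Il11ra1, 0.768 for Lifr, 0.556 for Il6st, 0.439 for Il11, 0.139 for Osmr and -0.309 for Lif. These family values were not centred on genotype, so the differences between genotypes described above enter them.

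Downstream of the receptors, edgeR called none of the kinases, transcription factors, adaptors, inhibitors or sheddases on the lists against both controls. Of 12 kinases, transcription factors and adaptors, 0 passed in edgeR, 2 had an unadjusted p under 0.05 (Ptpn11 and Grb2, beside 20.7% of all genes), and the median log2 difference was -0.08 against 0.02 over all genes tested. Stat3, the main transcription factor of the pathway, measured 109, 165 and 200.4 CPM in Mkx-CreER/flox, against 171, 164 and 166 CPM in Mkx-CreER/+ and 192, 168, 162 and 154 CPM in Mkx flox/+, with a log2 difference of -0.09 (95% interval -0.46 to 0.29). Of 12 inhibitors and receptor sheddases, 0 passed, 3 had an unadjusted p under 0.05 (Socs7, Ptpn6 and Adam10, beside the same 20.7%), and the median was -0.10. Socs3, the feedback inhibitor that STAT3 induces, measured 5.16, 4.76 and 8.65 CPM in Mkx-CreER/flox, against 9.03, 6.41 and 6.31 CPM in Mkx-CreER/+ and 7.20, 9.09, 6.71 and 3.72 CPM in Mkx flox/+. Its ranges overlapped, with a log2 difference of -0.17 (95% interval -0.82 to 0.48). Adam10, a protease that can shed receptor ectodomains such as that of Il6ra, lay above all controls at 71.6, 75.7 and 90.1 CPM in Mkx-CreER/flox against 48.4 to 64.4 CPM in Mkx-CreER/+ and 51.2 to 64.0 CPM in Mkx flox/+, but did not pass (0.44, SE 0.149, edgeR adjusted p = 0.107). DESeq2 called 0 of the 12 kinases, transcription factors and adaptors and 1 of the 12 inhibitors and sheddases, Ptpn6, against both controls. Over all 16017 genes DESeq2 called more in that comparison, 1447 against 744 in edgeR.

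Among 20 genes known to be induced through STAT3, 2 fell, 0 rose and 18 did not pass against both controls in edgeR, beside 4.65% called among all genes. Against Mkx flox/+ alone 1 fell (Lcn2) and 1 rose (Vegfa). The median log2 difference was -0.47 and 85% were below 0, against a median of 0.02 and 48.5% below 0 over all genes tested. Lcn2, which encodes the acute-phase protein lipocalin 2, measured 10.6, 11.6 and 10.5 CPM in Mkx-CreER/flox, against 23.9, 29.4 and 24.8 CPM in Mkx-CreER/+ and 20.4, 17.0, 44.1 and 16.4 CPM in Mkx flox/+ (log2 difference -1.22, SE 0.291, edgeR adjusted p = 0.0326). Serpina3n, an acute-phase protease inhibitor, measured 125, 203 and 169.6 CPM in Mkx-CreER/flox, against 385, 350.3 and 233 CPM in Mkx-CreER/+ and 258, 244, 375 and 264 CPM in Mkx flox/+ (-0.87, SE 0.217, edgeR adjusted p = 0.0363). For both genes every knockout library lay below every control. The call of Lcn2 ended without Mkx-CreER/+ library 1 or 2, any Mkx-CreER/flox library or Mkx flox/+ library 1 (edgeR adjusted p of 0.0517 to 0.101). That of Serpina3n ended without any of these or Mkx flox/+ library 2 or 3 (0.0521 to 0.118). With the macrophage score as a covariate, the differences were -0.45 and -0.09, and neither passed, in a fit that called 1 gene in all. That score does not overlap between the knockout and the controls, so the fit cannot separate it from genotype. Vegfa, which encodes the vascular growth factor VEGF-A, differed in the other direction, at 209.9, 124 and 73.1 CPM in Mkx-CreER/flox libraries 1, 4 and 5, against 99.7, 73.9 and 94.1 CPM in Mkx-CreER/+ libraries 1, 2 and 4 and 57.5, 62.8, 52.6 and 83.4 CPM in Mkx flox/+ libraries 1 to 4. Knockout library 5 lay within the controls and library 1 far above them. Vegfa rose against Mkx flox/+ (log2 difference 1.08, SE 0.281, edgeR adjusted p = 0.0334), a call that ended without Mkx-CreER/flox library 1 or 4 or Mkx flox/+ library 1, 2 or 3. Against both controls it stood at 0.84 (SE 0.248, edgeR adjusted p = 0.0664) and did not pass, although DESeq2 called it. The Lcn2 call against Mkx flox/+ (-1.18, SE 0.312, edgeR adjusted p = 0.0347) ended without any 1 Mkx-CreER/flox library or Mkx flox/+ library 1 or 3. Calls over all genes in the same fits are given above, with Il6ra for both controls and with Lifr for Mkx flox/+. Saa3, Mt1 and Cebpd, named after their values were seen, had log2 differences of -1.77 (SE 0.852), -1.19 (SE 0.415) and -1.17 (SE 0.427) and did not pass in edgeR (adjusted p = 0.256, 0.129 and 0.146). DESeq2, which called 1447 genes in all against 744 in edgeR, called Mt1 and Cebpd.

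**Figure D5:**
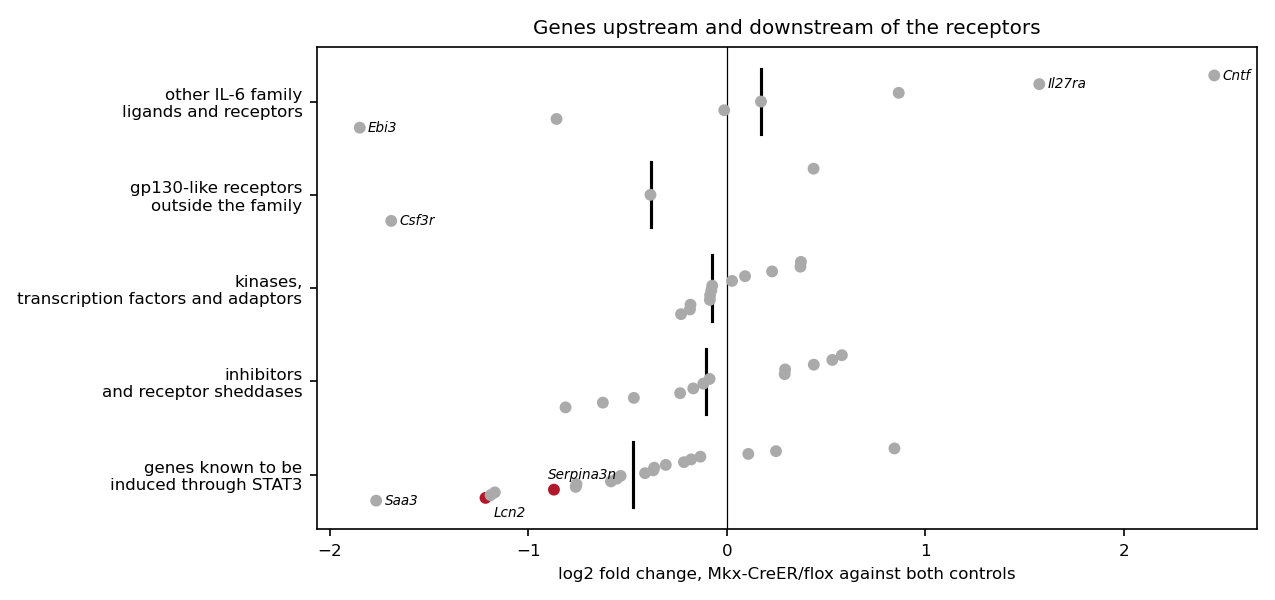
Log2 differences of Mkx-CreER/flox from both controls for the tested genes of 5 pathway lists (points), with the median of each list as a black bar. Lcn2 and Serpina3n, in red, are the genes called, and the STAT3-induced list has its median at -0.47.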

How the data were processed

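Total RNA of Achilles tendon was sequenced from RamDA-seq libraries, a method for small inputs. The authors deposited 1 table of raw read counts by Ensembl identifier; fastp and STAR with mm10 are named in the submitters' processing notes, without versions, and the counting step was not stated in the sources used here. Columns were matched to genotypes by name, and the numbers of the Mkx-CreER/flox and Mkx-CreER/+ columns differ from the labels' replicate numbers. Symbols came from GENCODE vM21 for 32158 of 32285 identifiers, as did positions and exon lengths on GRCm38, the assembly behind mm10, and promoter windows came from RefSeq GRCm38.p6.

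The tools were edgeR 4.0.16 and R 4.3.3. Genes kept by filterByExpr (16017) were scaled by TMM and fitted in 1 robust quasi-likelihood model of all 10 libraries with a term per genotype. A call means an adjusted p (Benjamini-Hochberg, all genes tested) under 0.05. CPM divides counts by the TMM-scaled library size, and marker scores are mean log2 CPM (prior count 2). The method was tested on simulated data. Alternatives were DESeq2 1.42.0, RLE scaling, no filter, a filter on CPM of at least 1 in 3 libraries, covariates, a block on column number (this and the macrophage score added after seeing the data), only the groups compared, and each library left out. Chi-square per degree of freedom between same-genotype libraries was 21.7 to 108, so none looked like a copy. The detection limit and read numbers cover counting error only.

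Genes named are the 10 members, Mkx, called genes of the pathway lists, and the 5 genes most like Il31ra. Members and lists were chosen with earlier results of these data known. Genes named besides these were chosen for their role, or after their values were seen.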

Additional observations from a re-analysis of the deposited data

Results flagged for a closer look

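In the 4 Mkx flox/+ libraries, library 3 was far above the others for 2 genes that were called as lower in the knockout. Lcn2 measured 44.1 CPM there, against 16.4 to 20.4 CPM in the other Mkx flox/+ libraries. Serpina3n measured 375 CPM there, against 244 to 264 CPM. These were 2 of 18 groups of values examined in this way, and chance alone flags about 1 in 20. Without that library Lcn2 was still called and Serpina3n was not (edgeR adjusted p = 0.0608). Mkx flox/+ library 3 also had the highest macrophage score of all libraries, 6.62, whose part in these values was not tested.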

How the results depend on the processing

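Leaving out 1 library at a time, the number of IL-6 family members called ranged from 0 to 2 against both controls, from 0 to 1 against Mkx-CreER/+ and from 0 to 2 against Mkx flox/+, and the number of pathway genes called from 0 to 5. Calls over all genes ranged from 64 to 1114, from 0 to 117 and from 455 to 1585 in the same 3 comparisons. The muscle score as a covariate gave 0 members against both controls, 0 against Mkx flox/+ and 0 pathway genes, and the macrophage score gave 0, 0 and 0. Over all genes, calls with the muscle score numbered 126 against both controls and 275 against Mkx flox/+. With the macrophage score they numbered 1 and 1. Only the groups compared gave 1 member against Mkx flox/+, Il6ra, among 901 genes called in all. DESeq2 gave 7 pathway genes against both controls, among 1447 genes called in all, where edgeR called 744. The causes were not tested. RLE scaling, both other filters and DESeq2 kept Il6ra called against both controls (log2 -1.16 to -1.17). The Osmr difference turned to 0.17 with the macrophage score in each of the 3 knockout comparisons. Between the controls Osmr turned to 0.0070 with no filter, 0.0023 with the muscle score and 0.0076 with the macrophage score. With 1 library left out it ranged from -0.15 to 0.091, as did Il6st from -0.11 to 0.031, Il6ra from -0.41 to 0.25 and Il11ra1 from -0.078 to 0.049. No other member changed sign under the settings run. Il31ra stayed between -3.19 and -1.96 against both controls, and Mkx was called in all 17 settings. Per longest transcript Osmr ranked above Lifr, and per coding length Lif ranked above Il31ra and Il6 above Osm. The planned block on the labels' replicate numbers was not run, because the knockout and Mkx-CreER/+ columns carry other numbers. With the column number as a replicate block, added after seeing the data, 0 members were called against both controls and 0 against Mkx flox/+, with 0 pathway genes against both controls. Against Mkx flox/+ 537 genes in all were called under this block, Vegfa among them. Osmr turned to 0.13 against both controls, 0.083 against Mkx-CreER/+, 0.17 against Mkx flox/+ and 0.091 between the controls under this block, and 119 genes in all were called against both controls. The block leaves 3 residual degrees of freedom and fits the 2 libraries with a number of their own exactly. Nothing ties the numbers to a batch or litter, and 1 of 7 same-numbered pairs had deviations from their genotype means that correlated above 0.1 (-0.062 to 0.14, against -0.19 to 0.21 for pairs with other numbers). Low counts limit what can be said of Il31ra, Lif, Il11, Osm and Il6.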

Other observations

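Several genes of the family are neighbours in the genome (GRCm38, protein-coding genes of GENCODE vM21). Il31ra and Il6st lie next to each other on chromosome 13, on opposite strands and 9811 bases apart, with log2 differences from both controls of -2.77 and -0.11. No exon of Il6st overlaps an exon of Il31ra. Osmr and Lifr are neighbours on chromosome 15, 215644 bases apart, at -0.10 and -0.64. Lif and Osm are neighbours on chromosome 11, 16530 bases apart. Il11ra1 and Cntfr, which encodes the binding chain for CNTF, lie 2899 bases apart on chromosome 4. Cntfr measured 4.25, 13.9 and 20.2 CPM in Mkx-CreER/flox, against 20.8, 27.7 and 25.1 CPM in Mkx-CreER/+ and 16.2, 22.8, 33.4 and 15.8 CPM in Mkx flox/+, and its difference did not pass (-0.86, SE 0.378, edgeR adjusted p = 0.219).

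Of the 10 other ligands and receptors of the family, 7 were tested and 0 passed against both controls in edgeR or in DESeq2, with 5 at an unadjusted p under 0.05, beside 20.7% of all genes. Against Mkx flox/+ alone, edgeR called 0, with 4 at such a p, beside 3690 of all 16017 genes. DESeq2 called Il27ra in that comparison, among 1850 genes in all. Il27ra had 48 reads over the 3 Mkx-CreER/flox libraries, 46 over the 3 Mkx-CreER/+ libraries and 7 over the 4 Mkx flox/+ libraries. Cntf, a ligand known from Schwann cells, measured 1.63, 10.5 and 16.9 CPM in Mkx-CreER/flox libraries 1, 4 and 5, against 4.73, 0.315 and 0.673 CPM in Mkx-CreER/+ libraries 1, 2 and 4 and 2.53, 0.341, 0.5683 and 3.60 CPM in Mkx flox/+ libraries 1 to 4. Its difference of 2.46 (SE 0.861, edgeR adjusted p = 0.138) did not pass. Zfp91, on the same strand, shares 78.9% of the exon bases of Cntf. How reads that fit both genes were counted was not stated in the sources used here, so these values may not be of Cntf alone. The Schwann cell score, a mean log2 CPM, was 1.52, 5.07 and 6.03 in the same knockout libraries, against 4.07, 1.88 and 1.70 in Mkx-CreER/+ and 2.30, 1.43, 1.82 and 3.24 in Mkx flox/+. Its part in the level of Cntf was not tested. Of 5 gp130-like receptors outside the family, 3 were tested and 0 passed in edgeR against both controls. At an unadjusted p under 0.05 stood 1 (Csf3r), beside 20.7% of all genes, and DESeq2 called Csf3r, among 1447 genes in all. Csf3r, the G-CSF receptor gene, measured 0.633, 0.884 and 0.222 CPM in Mkx-CreER/flox, against 0.740, 1.47 and 1.51 CPM in Mkx-CreER/+ and 1.36, 2.16, 4.43 and 3.84 CPM in Mkx flox/+. It fell against Mkx flox/+ alone (-2.31, SE 0.608, edgeR adjusted p = 0.0341), a call that ended without any 1 Mkx-CreER/flox library or Mkx flox/+ library 2, 3 or 4. These genes were named after their values were seen. Lepr, the leptin receptor, measured 186 to 351 CPM in Mkx-CreER/flox, 359 to 396 CPM in Mkx-CreER/+ and 213 to 531 CPM in Mkx flox/+ (-0.39, SE 0.273, edgeR adjusted p = 0.464).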
